A study of Mus musculus with 8 samples.

Results

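Expression of 10 genes of fatty acid synthesis and desaturation was compared between mouse tendon stem cells (TSCs) cultured in high fat, high glucose (HFHG) medium and in low glucose (LG) medium. The 10 genes, Srebf1, Acly, Acaca, Acacb, Fasn, Elovl6, Scd1, Scd2, Fads1 and Fads2, were chosen by symbol from the 19301 genes of the expression table, and each symbol matched 1 row. The rule that chose them names symbols and uses no measured value, although the list was drawn up with earlier results of these data known. LG medium held 5.5 mM glucose with DMSO, and HFHG medium held a higher glucose concentration together with 300 µM palmitic acid, a saturated fatty acid, so the effects of glucose and of palmitic acid cannot be told apart. The primary TSCs came from collagenase-digested patellar tendon of C57BL/6J mice, were grown in serum-supplemented medium and were exposed for 4 days. Each group had 4 biological replicates, and mRNA was sequenced from stranded libraries. The age, sex and number of the donor mice of these cultures were not given in the sources used here. The p-values therefore set each difference against the spread between these libraries, which may not cover the variation between mice. Expression was given as FPKM, the fragments of a gene scaled to its length and to the total of the library. This allows levels of different genes to be compared.

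The totals that scale the FPKM, recovered from the values, were 34308108 to 37362725 reads per library, with 99.8% on the 19301 genes. Between 16523 and 17015 genes had a value above 0. In a principal component analysis, PC1 took 81.0% of the variance and separated HFHG from LG, while PC2 took 4.18% and set LG replicate 4 apart. Of 8 tendon markers, Col1a1, Col1a2, Dcn, Fmod and Thbs4 were abundant in both groups, whereas Scx and Tnmd, which define tendon cells, had mean levels of 2.27 and 1.095 FPKM in HFHG and 1.45 and 0.614 FPKM in LG. The summed tendon markers were 2154 to 2201 FPKM in HFHG and 1452 to 1476 FPKM in LG, and 6 of the 8 were higher in HFHG and 1 was lower, Mkx. Scx, the defining transcription factor of the labelled cell type, was present at a low level only. Markers of macrophages were present too, with a summed level of 104 to 109 FPKM in HFHG and 153 to 161 FPKM in LG, and 6 of the 7 were lower in HFHG. Of all tested genes, 34.0% were higher and 30.8% were lower in HFHG by the limma test given below. Among the macrophage markers, Adgre1 had a mean of 26.5 FPKM in HFHG and 38.0 FPKM in LG, and Ptprc, which marks all leukocytes, had 1.98 and 2.26 FPKM. Adipocytes, the cell type best known for these 10 genes, were not visible by their defining markers, since Adipoq, Lep, Plin1, Cidec and Pparg stayed at or below 0.403 FPKM in every library. Of the adipocyte markers in the table, Fabp4 was the exception at 66.3 to 72.8 FPKM in HFHG and 23.3 to 29.3 FPKM in LG. Cfd, also on this list, had no matching symbol in the expression table.

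Cells build fatty acids from citrate that leaves the mitochondria. ATP citrate lyase (Acly) cuts citrate to acetyl-CoA, the acetyl-CoA carboxylases (Acaca, Acacb) turn it into malonyl-CoA, and fatty acid synthase (Fasn) joins these units to palmitate, the same fatty acid that HFHG medium supplies. Elovl6 lengthens palmitate to stearate, stearoyl-CoA desaturases (Scd1, Scd2) place the first double bond, and Fads2 and Fads1 add further double bonds to polyunsaturated fatty acids taken from the diet or from serum. Srebf1 encodes SREBP-1, a membrane-bound transcription factor that switches on most of these enzymes once it is escorted to the Golgi and cut free.

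Of the 10 genes, 6 differed between HFHG and LG and 4 did not pass the test (limma on log2(FPKM + 0.1), adjusted p below 0.05 over 11710 tested genes). Acacb, Fads2 and Scd1 were higher in HFHG, and Fasn, Srebf1 and Fads1 were lower. Acly, Acaca, Elovl6 and Scd2 were not called. The same 6 genes had FPKM that did not overlap between the groups. Across the table, 64.8% of tested genes were called, 34.0% higher and 30.8% lower, and 59.2% had groups that did not overlap, so 6 of 10 was close to the background in both counts. Which direction was the more frequent depended on the scaling, with 4682 of 7684 calls higher in HFHG after rescaling to the same sum, 3548 of 7601 after median-ratio scaling and 3606 of 7630 after quantile normalization. The direction was mixed, with a median log2 fold change of 0.037 for the 10 genes against 0.017 for all tested genes. The sizes were small, with a median absolute log2 fold change of 0.13 against 0.25 for all tested genes. None of the 10 passed a log2 fold change of 1, a size that 5.33% of tested genes reached at an unadjusted p below 0.05. These were bulk cultures, in which fewer cells of a type and less RNA per cell cannot be told apart, and the part of the lower macrophage and higher tendon marker levels in these differences was not tested.

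**Figure D1:**
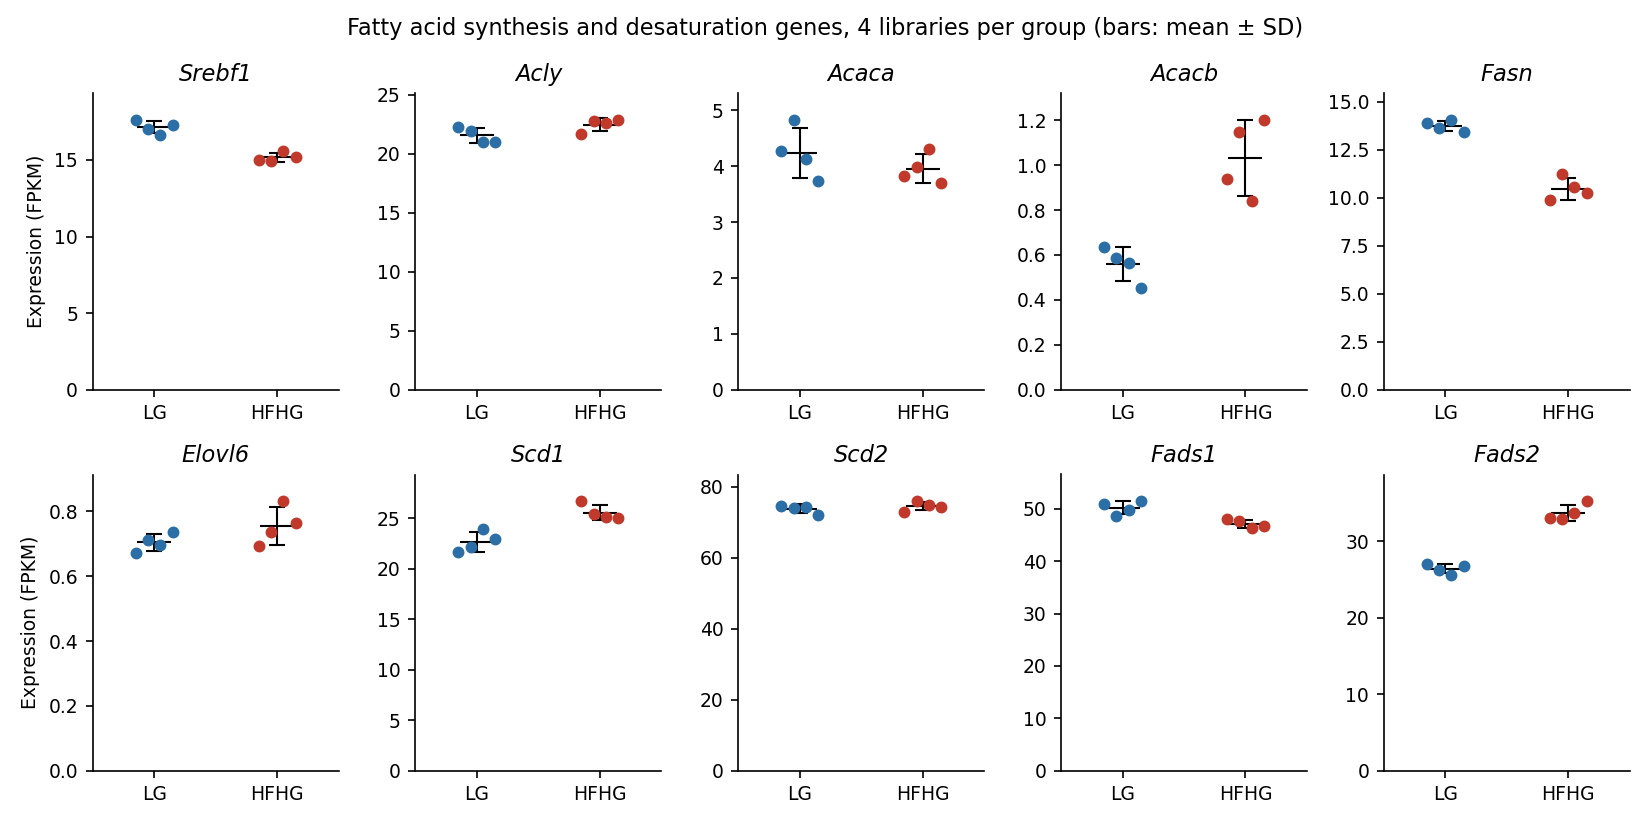
Expression in FPKM (vertical axes, starting at 0) of the 10 genes in the 4 LG (blue) and 4 HFHG (red) libraries, 1 point per library, with the mean and SD as bars. Acacb, Scd1 and Fads2 lie wholly higher in HFHG, Srebf1, Fasn and Fads1 lie wholly lower, and the other 4 genes overlap.

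Srebf1, on GRCm38 chr11:60199089-60222581 (minus strand, gene 20787), measured 15.0, 15.0, 15.6 and 15.2 FPKM in HFHG replicates 1 to 4 and 17.6, 17.1, 16.7 and 17.3 FPKM in LG replicates 1 to 4. All HFHG libraries lay below all LG libraries. The group means with their SD (n = 4 each) were 15.2 ± 0.282 and 17.1 ± 0.397 FPKM, a log2 fold change of −0.17 (SE 0.035, adjusted p = 0.000773). Between 2596 and 3037 reads lay behind each value. The gene shares 109 exon bases, 1.93% of its exon length, with Rai1 on the opposite strand. A single gene value covers SREBP-1a and SREBP-1c, the products of alternative starts, which were therefore not separated.

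The regulators around SREBP-1 moved in both directions. Of 16 genes on this list, 13 were tested, 3 were higher, 6 were lower and 4 were not called, with a median log2 fold change of −0.040. With 69.2% called, the list was near the 64.8% of all tested genes. Scap, the escort protein that carries SREBPs out of the endoplasmic reticulum, had 24.4 ± 0.654 FPKM in HFHG and 18.6 ± 0.879 FPKM in LG (SD, n = 4 each), for a log2 fold change of 0.39 (SE 0.040, adjusted p = 2.52e-06). Insig1, which holds Scap back in the endoplasmic reticulum, was lower, at 10.5 ± 0.511 FPKM against 12.1 ± 0.577 FPKM (log2 fold change −0.20, adjusted p = 0.00348). Usf2, a helix-loop-helix factor that binds the Fasn promoter, fell by 0.36 on the log2 scale (adjusted p = 0.00207). Smaller differences were found for Srebf2, which encodes SREBP-2 (0.091, adjusted p = 0.0345), for Mbtps1, the protease that makes the first cut in SREBPs (0.086, adjusted p = 0.0327), and for Nr1h3, the liver X receptor alpha (−0.28, adjusted p = 0.0399), and each of these calls was lost under some alternatives. Mlxipl, Thrsp and Ppargc1b, known from liver and fat as lipogenic regulators, were below the expression filter with means under 0.1 FPKM in both groups. Without LG replicate 1, 5 of the regulators were called in place of 9.

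Among the enzymes that make palmitate, Fasn was lower in HFHG and Acacb was higher. Fasn, on chr11:120805846-120824547 (minus strand, gene 14104), measured 9.86, 11.2, 10.6 and 10.2 FPKM in HFHG and 13.9, 13.6, 14.0 and 13.4 FPKM in LG. The highest HFHG library lay below the lowest LG library. The mean fell from 13.7 ± 0.269 FPKM in LG to 10.5 ± 0.577 FPKM in HFHG (SD, n = 4 each), for a log2 fold change of −0.39 (SE 0.046, adjusted p = 8.36e-06) or a difference of −23.7%, on 3845 to 5182 reads per library.

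Fasn and Srebf1 fell together, and their start regions are shown for that reason. RefSeq windows were matched for 7 of the 10 genes, and Scd1, Scd2 and Fads1 were not matched. The 250 bases before the annotated start are given 5′ to 3′ on the strand of the gene (GRCm38.p6), with CCAAT boxes (the letters CCAAT, on either strand) in capitals. The Fasn window is chr11:120824548-120824797 and the Srebf1 window, that of the most downstream of 3 annotated starts, is chr11:60210472-60210721.
Fasn: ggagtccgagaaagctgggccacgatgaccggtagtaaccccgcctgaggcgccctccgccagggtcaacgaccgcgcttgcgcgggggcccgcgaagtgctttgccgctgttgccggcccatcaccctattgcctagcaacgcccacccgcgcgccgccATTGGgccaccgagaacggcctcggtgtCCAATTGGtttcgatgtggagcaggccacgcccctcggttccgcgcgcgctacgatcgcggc
Srebf1: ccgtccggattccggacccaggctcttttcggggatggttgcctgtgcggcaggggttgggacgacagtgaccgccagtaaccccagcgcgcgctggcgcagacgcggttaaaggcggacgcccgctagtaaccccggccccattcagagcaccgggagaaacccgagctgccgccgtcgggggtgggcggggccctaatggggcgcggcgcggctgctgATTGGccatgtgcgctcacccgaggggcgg
Fasn had 3 CCAAT matches, which began 90, 62 and 59 bases before the start, the last pair overlapping, and this Srebf1 window had 1, at 30 bases. Of the other Srebf1 windows, chr11:60222582-60222831 had 1, at 166 bases, and chr11:60220628-60220877 had none. The window of Acacb, which was higher in HFHG, also had 1, at 87 bases. A CCAAT match was found in 33.8% of 32851 RefSeq windows of the same length, so its presence does not set these genes apart. A GC box, searched as GGGCGG on both strands, was in 32.7% of windows and in those of Acly, Srebf1 and Fads2. The sterol regulatory element written TCACNCCAC was in 1.05% of windows and the E-box CACGTG in 6.02%, and neither was in a window of the 7 matched genes. Only these letters were searched, so variant forms of an element would be missed, and a match is a description of the windows alone.

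Acacb, which encodes the carboxylase of the outer mitochondrial membrane whose malonyl-CoA restrains fatty acid oxidation, lies on chr5:114146535-114250761 (plus strand, gene 100705). Its levels were low, at 0.939, 1.15, 0.842 and 1.20 FPKM in HFHG and 0.634, 0.588, 0.563 and 0.454 FPKM in LG. Every HFHG library was above every LG library, and the HFHG libraries were more spread. The means of 1.03 ± 0.169 and 0.560 ± 0.0764 FPKM (SD, n = 4 each) gave a log2 fold change of 0.77 (SE 0.14, adjusted p = 0.000413), the largest of the 10 genes, with 153 to 415 reads per library. Acaca, the cytosolic carboxylase that feeds Fasn, lies on chr11:84129672-84401651 (plus strand, gene 107476) and had 3.70 to 4.30 FPKM in HFHG and 3.73 to 4.82 FPKM in LG. These ranges overlapped, and that of LG reached higher. The log2 fold change of −0.094 (SE 0.081, adjusted p = 0.321) had a 95% interval from −0.27 to 0.081. Acacb took 16.4% to 24.5% of the summed FPKM of both carboxylases in HFHG and 10.9% to 12.9% in LG. The mean share was 20.7% ± 3.50 against 11.7% ± 1.003 (SD, n = 4 each), a difference of 9.06 percentage points (exact two-sided permutation test, p = 0.0286, the smallest that 4 against 4 libraries allow, and 0.0286 adjusted over 3 pairs of genes). Acaca was the larger part of the pair in all 8 libraries.

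Acly, which supplies cytosolic acetyl-CoA and lies on chr11:100476353-100528000 (minus strand, gene 104112), measured 21.7, 22.8, 22.6 and 22.8 FPKM in HFHG and 22.3, 21.9, 21.0 and 21.0 FPKM in LG. In HFHG, 3 libraries lay above all LG libraries and replicate 1 lay among them. The log2 fold change was 0.060 (SE 0.035, adjusted p = 0.152), with a 95% interval from −0.017 to 0.14. The call depended on the scale, since the deposited FPKM summed to less in HFHG than in LG libraries, and with all libraries rescaled to the same sum the log2 fold change was 0.12 (adjusted p = 0.0194).

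The supply of acetyl-CoA, malonyl-CoA and NADPH by other enzymes showed larger differences. All 9 genes on this list were tested, 5 were higher, 3 were lower and 1, the mitochondrial citrate carrier Slc25a1, was not called (85.7 FPKM in HFHG, 82.6 FPKM in LG). The median log2 fold change was 0.086, and 88.9% of the list was called, beside 64.8% of all tested genes. Acss2, which activates acetate to acetyl-CoA in the cytosol and nucleus, measured 6.56, 6.32, 6.34 and 6.50 FPKM in HFHG and 3.31, 3.18, 2.56 and 3.50 FPKM in LG. Its groups lay far apart, and the log2 fold change was 1.02 (SE 0.085, adjusted p = 3.22e-07). Idh1, a cytosolic source of NADPH, rose from 47.0 ± 2.27 to 67.3 ± 1.73 FPKM (SD, n = 4 each, adjusted p = 6.01e-08). Mlycd, which breaks malonyl-CoA down again, rose from 4.19 ± 0.553 to 5.81 ± 0.426 FPKM (SD, n = 4 each, adjusted p = 0.00052).

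By contrast, both NADPH-forming dehydrogenases of the pentose phosphate pathway were lower in HFHG. Pgd had 130 ± 2.01 FPKM in HFHG and 178 ± 4.36 FPKM in LG (SD, n = 4 each), for a log2 fold change of −0.45 (adjusted p = 6.11e-09). For G6pdx the levels were 40.9 ± 1.26 and 51.5 ± 0.533 FPKM (SD, n = 4 each, log2 fold change −0.33, adjusted p = 5.65e-07). Aacs, which activates the ketone body acetoacetate for lipid synthesis, fell by 0.57 on the log2 scale, from 25.6 ± 1.05 to 17.3 ± 0.592 FPKM (SD, n = 4 each, adjusted p = 6.68e-08).

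Elovl6, the elongase that makes stearate, lies on chr3:129532355-129638495 (plus strand, gene 170439) and was the least expressed of the 10 genes in HFHG. It measured 0.693 to 0.831 FPKM in HFHG and 0.671 to 0.737 FPKM in LG, on 137 to 178 reads per library. The ranges overlapped, and the log2 fold change of 0.088 (SE 0.11, adjusted p = 0.511) had a 95% interval from −0.16 to 0.33, while quantile normalization turned its sign (−0.091, adjusted p = 0.487). Of 13 other genes of the elongation cycle, 9 were tested, 3 were higher, 3 were lower and 3 were not called, with a median log2 fold change of −0.091. That is 66.7% called, close to the 64.8% of all tested genes. Hacd4, a dehydratase of the cycle, measured 12.4, 13.2, 12.9 and 11.7 FPKM in HFHG and 5.40, 5.76, 5.54 and 5.64 FPKM in LG, a log2 fold change of 1.16 (SE 0.050, adjusted p = 6.83e-10). Hsd17b12, the ketoacyl-CoA reductase of the cycle, measured 69.7, 68.5, 68.3 and 67.7 FPKM in HFHG and 106, 100.4, 105 and 105 FPKM in LG, a log2 fold change of −0.60 (SE 0.026, adjusted p = 5.58e-10). Neither gene had overlapping groups, and they moved in opposite directions. Smaller changes were higher Hacd3 (0.19, adjusted p = 0.004) and Elovl5 (0.14, adjusted p = 0.00258), and lower Hacd1 (−0.27, adjusted p = 5.03e-05) and Elovl1 (−0.11, adjusted p = 0.0325), the last of which was lost under several alternatives. Tecr, the reductase that completes each round, was not called, with 90.7 FPKM in HFHG and 91.3 FPKM in LG.

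Scd1 rose and the related Scd2 did not pass the test. Both lie on chromosome 19, Scd1 at chr19:44394455-44407879 (minus strand, gene 20249) and Scd2 at chr19:44293674-44306864 (plus strand, gene 20250). Their coding sequences were 90.3% identical, with a longest identical run of 147 bases. The FPKM scale with 4837 bases of Scd1 and 5453 of Scd2, against coding sequences of 1065 and 1074 bases, and the rest was not compared. How reads that match both genes were assigned is not given in the sources used here, so their levels are uncertain to that extent. The stretch of 120 bases in which they differ most (GENCODE M21, coding bases 75 to 194 of Scd1 and 84 to 203 of Scd2) is shown with the 32 differing bases in capitals.
Scd1: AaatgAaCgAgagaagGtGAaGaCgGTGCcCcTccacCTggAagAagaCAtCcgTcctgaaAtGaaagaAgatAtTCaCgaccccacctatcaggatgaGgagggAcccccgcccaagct
Scd2: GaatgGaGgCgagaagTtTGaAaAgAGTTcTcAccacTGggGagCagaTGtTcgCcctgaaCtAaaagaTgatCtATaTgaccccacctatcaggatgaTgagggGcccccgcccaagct
Scd1 measured 26.7, 25.4, 25.1 and 25.0 FPKM in HFHG and 21.6, 22.2, 23.9 and 22.9 FPKM in LG. The lowest HFHG library lay just above LG replicate 3, the highest of its group. The means of 25.6 ± 0.748 and 22.7 ± 1.01 FPKM (SD, n = 4 each) gave a log2 fold change of 0.17 (SE 0.039, adjusted p = 0.00172), on 3586 to 4817 reads per library.

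Scd2 was the most abundant of the 10 genes, at 73.0, 75.9, 74.9 and 74.4 FPKM in HFHG and 74.7, 74.1, 74.3 and 71.9 FPKM in LG. The libraries of both groups were interleaved. The log2 fold change was 0.015 (SE 0.025, adjusted p = 0.613) with a 95% interval from −0.039 to 0.069, which was the narrowest interval among the 10 genes and was based on 13961 to 14875 reads per library. Its direction depended on the scaling, with 0.074 (adjusted p = 0.0381) after rescaling to the same sum and −0.022 (adjusted p = 0.463) after median-ratio scaling. A share within a library does not depend on such scaling. Scd2 took 73.3%, 74.9%, 74.9% and 74.8% of the summed FPKM of Scd1 and Scd2 in HFHG and 77.6%, 77.0%, 75.6% and 75.9% in LG. The HFHG libraries were lower throughout, with means of 74.5% ± 0.808 and 76.5% ± 0.919 (SD, n = 4 each), a difference of −2.04 percentage points (exact two-sided permutation test, p = 0.0286, adjusted p = 0.0286 over 3 pairs). Scd3 and Scd4, the remaining mouse stearoyl-CoA desaturases, were below the filter and did not exceed 0.170 FPKM in any library.

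**Figure D2:**
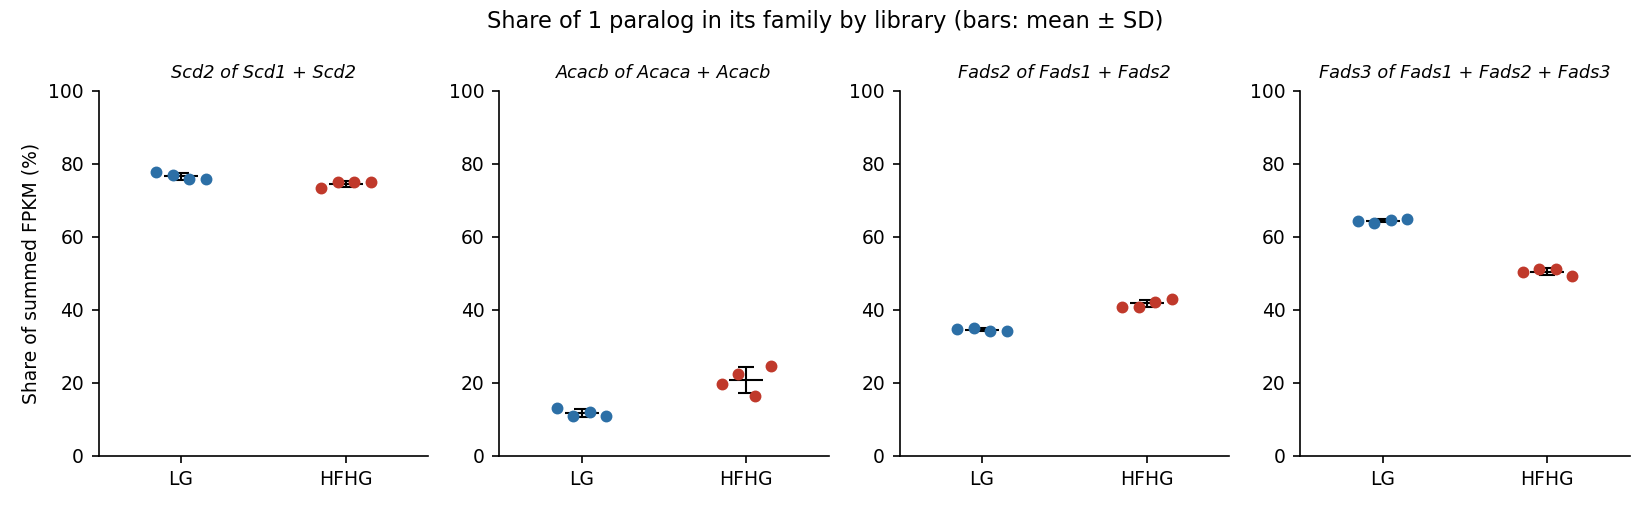
Share of 1 gene in the summed FPKM of its family (vertical axes, percent, 0 to 100) in the 4 LG (blue) and 4 HFHG (red) libraries, with the mean and SD as bars. In HFHG the share of Scd2 was slightly lower (74.5% against 76.5%), those of Acacb (20.7% against 11.7%) and Fads2 (41.7% against 34.5%) were higher, and that of Fads3 was lower (50.4% against 64.4%).

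Fads2 and Fads1, the desaturases that act in turn on polyunsaturated fatty acids, moved in opposite directions. They lie on chromosome 19, Fads2 at chr19:10062765-10101746 (minus strand, gene 56473) and Fads1 at chr19:10182888-10196877 (plus strand, gene 76267). Fads2 measured 33.1, 32.9, 33.7 and 35.2 FPKM in HFHG and 27.0, 26.2, 25.6 and 26.8 FPKM in LG. All HFHG libraries were clearly higher, with means of 33.7 ± 1.04 and 26.4 ± 0.600 FPKM (SD, n = 4 each), for a log2 fold change of 0.35 (SE 0.033, adjusted p = 1.03e-06) or 1.28-fold. Fads1 measured 48.0, 47.6, 46.4 and 46.7 FPKM in HFHG and 50.9, 48.6, 49.7 and 51.4 FPKM in LG. Its groups did not overlap but came close, with means of 47.2 ± 0.751 and 50.2 ± 1.24 FPKM (SD, n = 4 each) and a log2 fold change of −0.088 (SE 0.028, adjusted p = 0.0151). This call for Fads1 was lost after rescaling to the same sum (−0.029, adjusted p = 0.357) and after quantile normalization (−0.057, adjusted p = 0.0716), while its direction stayed the same.

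The balance within the FADS family did not rest on the scaling. Fads2 took 40.8%, 40.8%, 42.1% and 43.0% of the summed FPKM of Fads1 and Fads2 in HFHG and 34.6%, 35.0%, 34.0% and 34.3% in LG. The means were 41.7% ± 1.05 and 34.5% ± 0.437 (SD, n = 4 each), a difference of 7.21 percentage points (exact two-sided permutation test, p = 0.0286, adjusted p = 0.0286 over 3 pairs). Since Fads2 was higher and Fads1 lower in every HFHG library, this share had to separate the groups. Its p-value was thus fixed by those values and adds nothing to them. Fads3, which acts on sphingoid bases and lies at chr19:10041569-10060110 (plus strand), was the most abundant of this family. It measured 81.6, 84.0, 84.0 and 79.3 FPKM in HFHG and 140.0, 132, 137 and 144 FPKM in LG, a log2 fold change of −0.75 (SE 0.031, adjusted p = 4.98e-10). Every HFHG library lay far below every LG library. Its share in the summed FPKM of Fads1, Fads2 and Fads3, a comparison chosen after the values were seen, was 50.4% ± 0.916 in HFHG and 64.4% ± 0.424 in LG (SD, n = 4 each, exact two-sided permutation test, p = 0.0286). The coding sequences of Fads2 and Fads3 were 71.1% identical with a longest identical run of 54 bases, and those of Fads1 and Fads2 were 67.8% identical with a run of 17 bases.

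Of the 8 other desaturases and electron donors on the list, 6 were tested, 1 was higher, 4 were lower and 1 was not called, with a median log2 fold change of −0.22. Calls covered 83.3% of the tested genes of this list and 64.8% of all tested genes. Degs1, which introduces the double bond of ceramide, had 129 ± 1.71 FPKM in HFHG and 169 ± 4.29 FPKM in LG (SD, n = 4 each, log2 fold change −0.39, adjusted p = 2.08e-08). The opposite direction was found for Cyb5r3, the reductase that passes electrons through cytochrome b5 to the desaturases, at 304 ± 4.16 FPKM against 211 ± 8.52 FPKM (SD, n = 4 each, log2 fold change 0.53, adjusted p = 4.98e-09). Of the cytochromes themselves, Cyb5a was not called (169 FPKM against 176 FPKM), and Cyb5b was lower by a small amount (−0.089, adjusted p = 0.0402) in a call that was lost under several alternatives. In this list 3 genes were called without a filter on low values, after rescaling, with the replicate number as a block and when HFHG replicate 1, 2 or 4 or LG replicate 1 was left out.

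**Figure D3:**
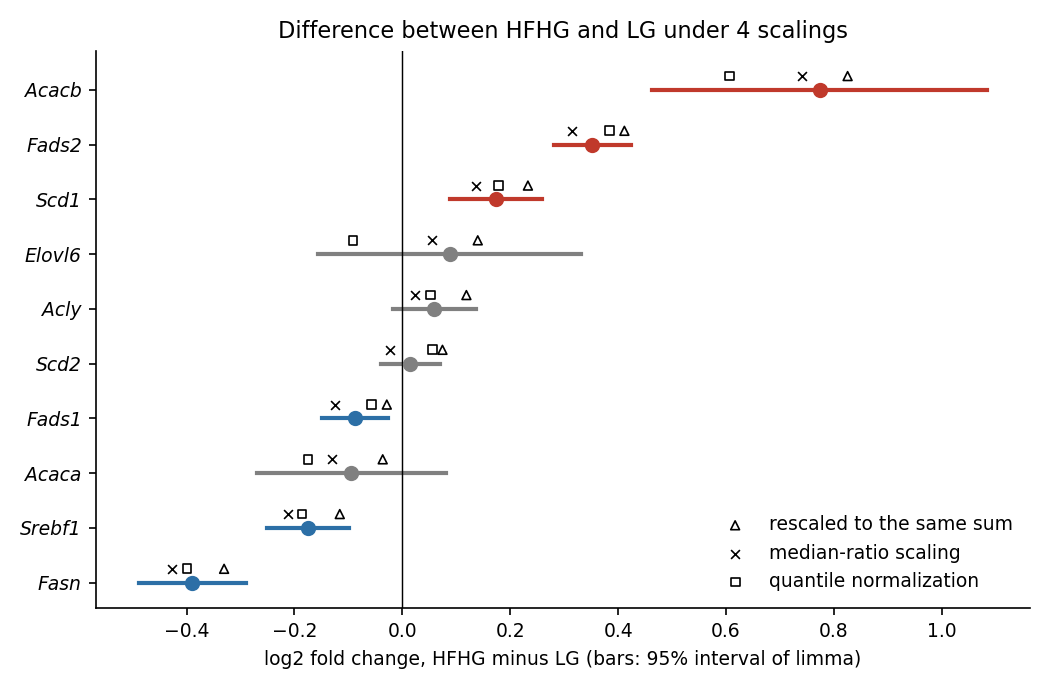
Log2 fold change of each of the 10 genes, HFHG minus LG (horizontal axis), as limma estimates (circles) with 95% intervals (bars), red for higher, blue for lower and grey for not called. Open triangles, crosses and open squares give the value after the other scalings. Acacb, Fads2, Scd1, Fads1, Srebf1 and Fasn kept their side of 0 under all of them, while Elovl6 and Scd2 crossed it under 1 each.

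The order of the 10 genes by level was nearly the same in both groups. In HFHG it was Scd2, Fads1, Fads2, Scd1, Acly, Srebf1, Fasn, Acaca, Acacb and Elovl6, from 74.5 to 0.756 FPKM, and no neighbours in this order had overlapping ranges. In LG, Acacb and Elovl6 changed places, at 0.560 and 0.704 FPKM, and Scd1 and Acly, at 22.7 and 21.6 FPKM, had ranges that overlapped. The desaturases were thus the most abundant of these genes in both groups, and the second carboxylase and the elongase the least.

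Mitochondria have a separate fatty acid synthesis pathway, which makes the precursor of lipoic acid. Of 11 genes on this list, 10 were in the table and tested, and Hsd17b8 was not analysed here. Among the tested genes, 2 were higher, 2 were lower and 6 were not called, with a median log2 fold change of 0.13. The called share, 4 of 10, was below the 64.8% of all tested genes. Lipt1, a lipoyl transferase, had 1.66 ± 0.187 FPKM in HFHG and 1.28 ± 0.0772 FPKM in LG (SD, n = 4 each, log2 fold change 0.34, adjusted p = 0.0111), a call that was lost after quantile normalization and with voom on the recovered reads. Cbr4 was higher (0.23, adjusted p = 0.00249). Lower values were found for Mecr, the last reductase of that pathway (−0.25, adjusted p = 0.00802), and for Ndufab1, the mitochondrial acyl carrier protein (−0.12, adjusted p = 0.014, lost after rescaling).

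The targets that SREBPs control on the sterol side were mixed in direction as well. Of 12 genes, 11 were tested, 4 were higher, 2 were lower and 5 were not called, with a median log2 fold change of −0.077. A share of 54.5% was called, beside 64.8% of all tested genes. Stard4, a sterol carrier, had 3.83 ± 0.0777 FPKM in HFHG and 2.52 ± 0.125 FPKM in LG (SD, n = 4 each, log2 fold change 0.59, adjusted p = 4.35e-06). Hmgcs1, an early enzyme of sterol synthesis, rose by a log2 fold change of 0.47 (adjusted p = 2.39e-05) and Cyp51 by 0.33 (adjusted p = 0.000722). Sqle, the squalene epoxidase, fell by 0.32 on the log2 scale (adjusted p = 3.64e-05) and Fdps by 0.24 (adjusted p = 0.00013).

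Liver X receptors induce Srebf1 in many cells. All 7 of their targets on the list were tested, 3 were higher, 3 were lower and 1 was not called, with a median log2 fold change of −0.066. Calls made up 85.7% of these targets and 64.8% of all tested genes. Mylip, a ubiquitin ligase, rose by a log2 fold change of 0.69 (adjusted p = 2.35e-06), the sterol exporter Abcg1 by 0.51 (adjusted p = 3.74e-06) and Lpcat3, which places polyunsaturated chains into phospholipids, by 0.40 (adjusted p = 1.15e-05). Apoe, which macrophages also express strongly, had 10.1 ± 0.461 FPKM in HFHG and 18.2 ± 0.643 FPKM in LG (SD, n = 4 each, log2 fold change −0.83, adjusted p = 4.66e-09). The summed macrophage markers were lower in the same libraries, and their part in the value of Apoe was not tested. Smpdl3a (−0.24, adjusted p = 1.12e-05) and Pltp (−0.13, adjusted p = 0.00242) were lower by less, and the call for Pltp was lost after rescaling. Abca1, the best-known target, was not called, at 11.1 FPKM in HFHG and 11.7 FPKM in LG.

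AMP-activated protein kinase (AMPK) phosphorylates and inhibits both acetyl-CoA carboxylases. Of its 7 subunit genes, 6 were tested, 3 were higher, 1 was lower and 2 were not called, with a median log2 fold change of 0.14. At 66.7%, the called share was close to the 64.8% of all tested genes. The regulatory subunit Prkab2 had 4.07 ± 0.254 FPKM in HFHG and 2.99 ± 0.334 FPKM in LG (SD, n = 4 each, log2 fold change 0.44, adjusted p = 0.000627). Prkag1 was higher too (0.25, adjusted p = 9.29e-05), whereas Prkab1 was lower (−0.17, adjusted p = 0.0395) in a call that several alternatives did not keep. Of the catalytic subunits, Prkaa1 was not called, at 14.3 and 13.9 FPKM, and Prkaa2, expressed at a low level, was higher, at 1.09 FPKM in HFHG and 0.758 FPKM in LG (log2 fold change 0.49, adjusted p = 0.00554). Transcript levels carry no measure of kinase activity.

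**Figure D4:**
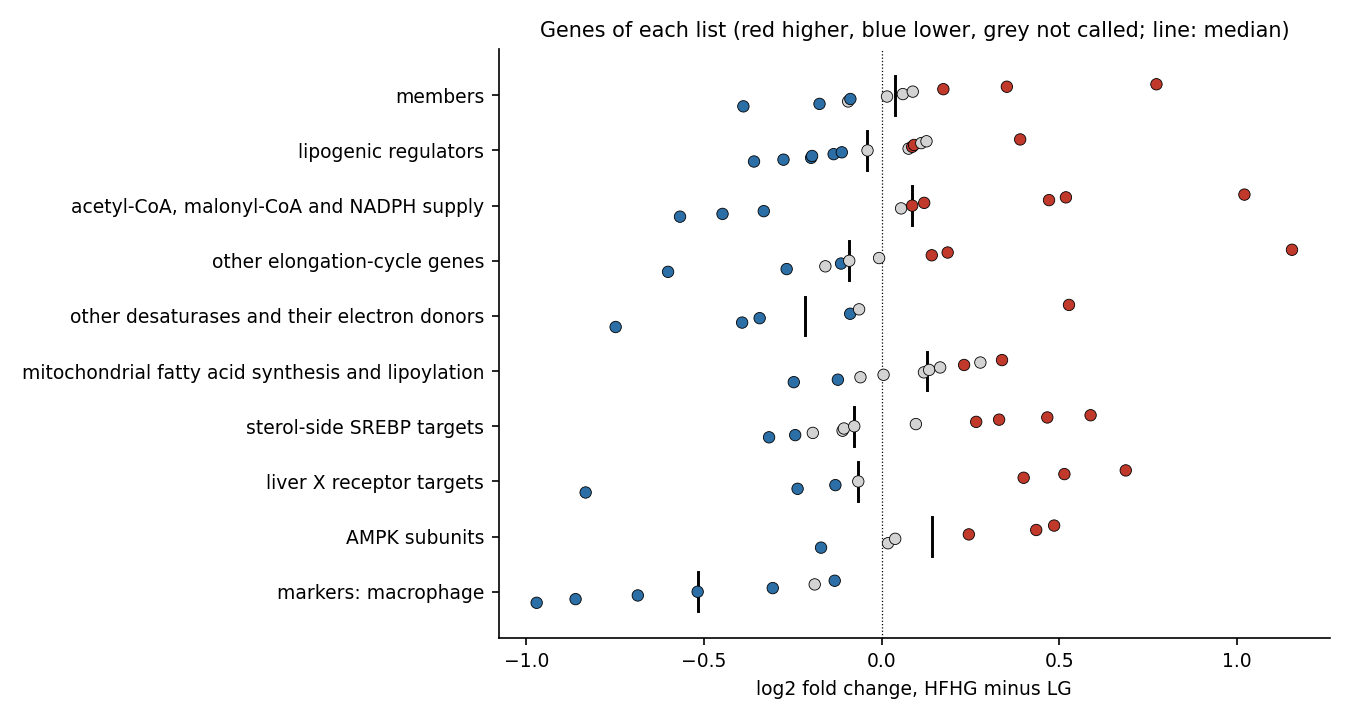
Log2 fold change, HFHG minus LG (horizontal axis), of every tested gene on each list (1 point per gene, red higher, blue lower, grey not called; vertical line, median of the list). Medians of the 9 lists of metabolic and regulatory genes lie between −0.22 and 0.14 with calls in both directions on each, while the macrophage markers have no gene called higher.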

How the data were processed

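mRNA of 4 HFHG cultures (25.5 mM glucose with 300 µM palmitic acid) and 4 LG cultures (5.5 mM glucose) of primary mouse TSCs was sequenced after 4 days. The labels gave each library its group and replicate number, and the study's text gave the media. The authors deposited FPKM per gene and library, without pooling. HISAT2 2.1.0 and the build mm10 are named in the submitters' processing notes, and the counting program, the annotation and any filters are not given in the sources used here. Assignment of reads shared by Scd1 and Scd2 and the use of strand are therefore unknown. Whole reads per gene were recovered for 100% of 19301 genes at a relative tolerance of 1e-06, which gave the depth.

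Genes with at least 0.5 FPKM in at least 4 libraries were tested with limma 3.58.1 (R 4.3.3) on log2(FPKM + 0.1), with a trend and Benjamini-Hochberg adjustment over all 11710 tested genes, so fold changes of low genes are understated. Single values and shares were compared with exact two-sided permutation tests over 70 arrangements (scipy 1.17.1, Python 3.11.15), adjusted over 3 pairs. The fit and the read recovery were tested on simulated data. The 10 genes and all lists were chosen with earlier results of these data known. The text names the 10 genes and, of each list, up to 3 called genes in each direction with the largest change and a mean of at least 1 FPKM. Genes given as not called (Slc25a1, Tecr, Cyb5a, Abca1 and Prkaa1), Prkaa2, whose mean lies below that level, and Scd3, Scd4, Mlxipl, Thrsp and Ppargc1b were named after their values were seen. Gene positions are from GENCODE M21 and start regions from RefSeq (GRCm38.p6). Alternatives were other pseudocounts, filters and scalings, a fit without a trend, a replicate block, each library left out in turn and, added after the data were seen, voom on the recovered reads.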

Additional observations from a re-analysis of the deposited data

Results flagged for a closer look

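Of 108 groups of 4 libraries, 6 held 1 library far from the other 3, about as many as chance gives, which is 1 in 20 groups. In HFHG, Hacd1 had 29.4 FPKM in 1 library and 27.8 to 27.9 FPKM in the others, and Degs1 had 131.5 FPKM against 127.9 to 128.2 FPKM. Lipt1 had 1.38 FPKM in 1 HFHG library and 1.74 to 1.76 FPKM in the others. In LG, Cyb5b had 36.7 FPKM in 1 library and 39.2 to 39.5 FPKM in the others, and Mylip had 5.59 FPKM against 4.94 to 5.04 FPKM. The share of Scd2 in Scd1 and Scd2 was 73.3% in HFHG replicate 1 and 74.8% to 74.9% in the other HFHG libraries, and without that replicate the mean difference from LG kept its direction.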

How the results depend on the processing

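All 10 genes kept their call when any 1 library was left out, and 6 were called each time. The 10 genes gave 5 calls at a minimum of 1 FPKM (Acacb and Elovl6 were then not tested) and after quantile normalization, and 7 after rescaling to the same sum. With rescaling, Acly (0.12, adjusted p = 0.0194) and Scd2 (0.074, adjusted p = 0.0381) passed and Fads1 did not (−0.029, adjusted p = 0.357), nor did Fads1 after quantile normalization (−0.057, adjusted p = 0.0716). The sign turned for Elovl6 after quantile normalization (−0.091, adjusted p = 0.487) and for Scd2 after median-ratio scaling (−0.022, adjusted p = 0.463), and neither was called either way. The median over all tested genes was 0.075 after rescaling, −0.019 after median-ratio scaling and −0.022 after quantile normalization. Genes past a log2 fold change of 1 numbered 624, 303 with a pseudocount of 1, and 613 to 637 with a library left out. The calls among other desaturases fell from 5 to 3 without a filter, with rescaling and with the replicate block, and were 3 to 5 with a library left out, and among lipogenic regulators they were 5 to 8 in place of 9. Same-numbered libraries did not deviate together (correlations of −0.021, −0.0096, −0.0056 and −0.074), and the fit with a replicate block called 7342 genes in place of 7592 and 6 of the 10. With the replicate block, the share differences of −2.04 (Scd2), 9.06 (Acacb) and 7.21 (Fads2) percentage points had an adjusted exact p of 0.125, the smallest that 4 pairs allow. With a library left out they ranged from −2.33 to −1.63, from 7.81 to 10.5 and from 6.77 to 7.49 percentage points, each at an adjusted exact p of 0.0571, the smallest that 3 against 4 libraries allow. Voom on the recovered reads called 7780 genes and 6 of the 10. Of 40 named genes beside the 10, 31 kept their call under every alternative, and Srebf2, Mbtps1, Nr1h3, Elovl1, Cyb5b, Lipt1, Ndufab1, Pltp and Prkab1 lost it under at least 1. The cause of these changes was not tested. At 137 to 178 reads per library, Elovl6 has the least depth of the 10. Its 95% interval of −0.16 to 0.33 for the log2 fold change includes differences in either direction.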
